A study of Mus musculus with 16 samples.

Results

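The calpain system of the mouse ventricle was followed through 10 genes chosen by name: the catalytic subunits Capn1, Capn2, Capn3, Capn5, Capn6, Capn7, Capn10 and Capn15, the small regulatory subunit Capns1, and calpastatin, Cast. All 10 stood in the deposited count table of 24421 gene entries, and all 10 were among the 13522 genes with enough reads to test. Each of the 16 libraries was polyadenylated RNA from ventricles, 4 libraries in each of 4 groups. JP2CR mice were homozygous for a Jph2 allele that lacks codons 563 to 568, which leaves junctophilin-2 resistant to calpain, and wildtype (WT) mice were their littermates. TAC, a narrowing of the aorta that overloads the left ventricle with pressure, or sham surgery was done at 9 to 10 weeks of age, and ventricles were taken 5 weeks later. The groups were thus JP2CR TAC, JP2CR sham, WT TAC and WT sham, all of strain C57BL/6N and labelled male. The labels name no conditional or tissue-restricted step for the allele.

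Calpains are cytosolic cysteine proteases switched on by calcium. They cut proteins at a few exposed sites rather than degrading them. The classical enzymes are heterodimers of Capn1 (calpain-1, the form that needs little calcium) or Capn2 (calpain-2, which needs more) with the shared subunit Capns1, and calpastatin is their dedicated protein inhibitor. In cardiomyocytes junctophilin-2 ties the transverse tubule to the sarcoplasmic reticulum, and its cleavage by calpain in the stressed heart is the reason for the JP2CR allele. RNA levels say nothing of calcium or of enzyme activity.

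The deleted codons lie in exon 4 or exon 5 of Jph2, depending on the coding transcript, within chr2:163339509-163339586 on the minus strand of GRCm38. The line shows coding sequence only, read 5′ to 3′, because it is the calpain target that distinguishes the genotypes. Capitals mark the 18 bases of codons 563 to 568, at 163339539 to 163339556, with 30 bases to each side.
Jph2: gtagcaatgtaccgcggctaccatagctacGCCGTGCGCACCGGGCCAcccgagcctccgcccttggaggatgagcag
Jph2 RNA itself averaged 631 ± 33.2 CPM in JP2CR TAC, 686 ± 64.0 CPM in JP2CR sham, 663 ± 24.5 CPM in WT TAC and 667 ± 37.5 CPM in WT sham (SD, n = 4 each). CPM are read counts relative to the scaled total of each library. A count per gene does not show an 18-base deletion, so the targeted gene gave no check of the genotype labels. The edgeR quasi-likelihood test called Jph2 in none of the 5 comparisons, the lowest Benjamini-Hochberg adjusted p being 0.134 for TAC in JP2CR.

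Before the calpain values, some libraries need naming. Totals ran between 9966782 and 16609732 counts, so that 3 counts amounted to 0.185 to 0.314 CPM. Although all mice were labelled male, JP2CR TAC 4, JP2CR sham 3 and JP2CR sham 4 held 140, 189 and 196 CPM of Xist, the RNA of the inactive X chromosome, against at most 0.265 CPM elsewhere. Summed Y-linked transcripts were 118 CPM in JP2CR TAC 4 and 0 CPM in JP2CR sham 3 and 4, against 179 to 236 CPM elsewhere, so JP2CR TAC 4 held both kinds. Xist without Y-linked transcripts, as in JP2CR sham 3 and 4, is the pattern of female tissue, against their label. The libraries with Xist were all JP2CR. By these transcripts, sex was thus not balanced between the genotypes, nor between the surgeries in JP2CR. Its part in the values was not tested, nor was whether any of these libraries was mixed. For 97.3% and 98.1% of the genes on which libraries 1 and 2 of the group differed, JP2CR TAC 3 and WT TAC 3 lay between them (475 and 569 genes), and these are called the intermediate TAC libraries. On the same genes, JP2CR TAC 4 lay between libraries 1 and 2 for 72.2% and WT TAC 4 for 88.2%. On fewer genes, WT sham 3 lay between WT sham 1 and 2 for 96.7% of 121, and WT sham 4 between WT sham 2 and 3 for 98.3% of 58. No pair of replicate libraries agreed within sampling noise, which would give a chi-square of the counts near 1 per gene. WT sham 2 and 4 came closest, at 1.52 per gene, against 2.37 to 22.7 for the other pairs. Markers of tissue content differed too: Myl7, the atrial myosin light chain, had 85.5 to 174 CPM in JP2CR TAC, 0.941 to 802 CPM in JP2CR sham, 7.76 to 60.8 CPM in WT TAC and 451 to 761 CPM in WT sham. The value of 0.941 was that of JP2CR sham 4 alone. Of 7 atrial markers, 0 were called higher and 3 lower in JP2CR, and 1 higher and 6 lower in WT. Their sum was 4143 to 5213 CPM in JP2CR TAC and 302 to 6028 CPM in JP2CR sham. In WT it was 3924 to 7529 CPM after TAC and 3147 to 4605 CPM after sham surgery. The summed ventricular cardiomyocyte markers were 55780 to 60703 CPM in JP2CR TAC, 70858 to 92284 CPM in JP2CR sham, 55000 to 58793 CPM in WT TAC and 75083 to 80260 CPM in WT sham. Not all of these 7 markers fell: 0 were called higher and 6 lower in JP2CR, and 1 higher and 4 lower in WT. The summed fibroblast markers stood higher after TAC, at 2269 to 2790 CPM in JP2CR TAC, 1377 to 1796 CPM in JP2CR sham, 2176 to 2967 CPM in WT TAC and 1650 to 1696 CPM in WT sham. Not all of the list rose: of 7 fibroblast markers, 3 were called higher and 1 lower in JP2CR (median log2 fold change 0.09). In WT, 3 were called higher and 0 lower (median 0.21). The summed smooth muscle markers stood lower, at 201 to 238 CPM in JP2CR TAC, 315 to 509 CPM in JP2CR sham, 173 to 212 CPM in WT TAC and 281 to 527 CPM in WT sham, with 3 of 5 called lower in JP2CR and 5 of 5 in WT. Of 9 adipocyte markers, 0 were called in JP2CR and 8 were lower in WT. In such bulk tissue, fewer cells of a type and less RNA per cell cannot be told apart, and the part of cell content in the changes that follow was not tested.

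The first question was how pressure overload moved the calpain system. In both genotypes the inhibitor Cast and the catalytic subunit Capn2 rose after TAC while Capn1 fell. Capn15 fell as well in JP2CR, and the common regulatory subunit Capns1 was not called. Genes are called here at an adjusted p under 0.05 in the edgeR quasi-likelihood test. In JP2CR, 4 of the 10 genes were called, 2 higher and 2 lower, where 41.5% of all tested genes were called, 20.7% in each direction. In WT, 3 of the 10 were called, 2 higher and 1 lower, against 41.9% of all tested genes, 21.1% higher and 20.8% lower. The share of calpain genes that responded was therefore not above that of all genes. Libraries did not overlap between TAC and sham for 3 of the 10 genes in JP2CR and for 3 in WT, against 34.1% and 42% of all tested genes. Their changes were also small: the median log2 fold change without its sign was 0.15 in JP2CR and 0.13 in WT, against 0.22 in both genotypes over all tested genes.

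**Figure D1:**
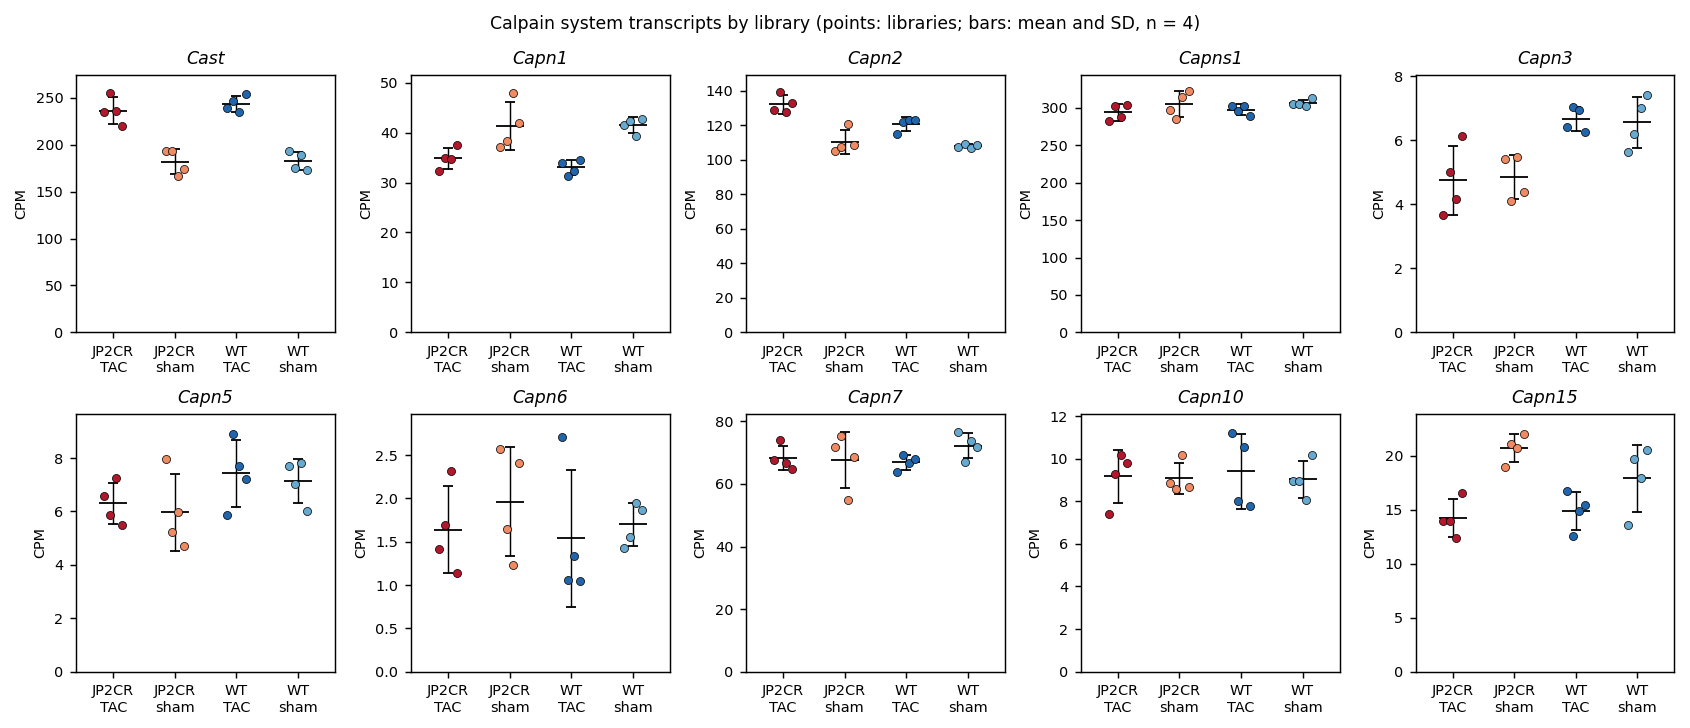
CPM of each calpain system gene (y axes, from 0) in each library, by group. Points are libraries, and the horizontal and vertical bars are the mean and SD of 4 libraries. Every TAC library lies above every sham library of its genotype for Cast and for Capn2, whereas Capns1 and Capn7 overlap.

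Calpastatin, the inhibitor, showed the clearest response. Cast had 235, 255, 236 and 220 CPM in JP2CR TAC, against 194, 194, 167 and 174 CPM in JP2CR sham. In WT TAC the 4 libraries had 239, 246, 235 and 254 CPM, against 193, 175, 189 and 173 CPM in WT sham. No TAC library fell into the range of the sham libraries of either genotype. The log2 fold change was 0.38 ± 0.06 (SE) in JP2CR (adjusted p = 8.27e-05) and 0.41 ± 0.06 in WT (adjusted p = 2.60e-05). Cast spans chr13:74692368-74808810 on the minus strand, with 13 annotated transcripts, 8 of them coding, which a count per gene adds together. Its exons overlap those of Erap1 on the opposite strand over 7.27% of their length.

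Capn2, the catalytic subunit of calpain-2, rose less. It had 129, 139, 128 and 133 CPM in JP2CR TAC and 105, 108, 121 and 109 CPM in JP2CR sham. The WT TAC libraries had 115, 122, 123 and 123 CPM, and the WT sham libraries 108, 109, 107 and 109 CPM. Every TAC library was again above every sham library of its genotype, although JP2CR sham 3 at 121 CPM stood close to the TAC values. The log2 fold change was 0.26 ± 0.05 in JP2CR (adjusted p = 0.000463) and 0.16 ± 0.05 in WT (adjusted p = 0.0142). Capn2 lies at chr1:182467260-182517608 on the minus strand. Over 27.06% of its exon length it shares positions with the antisense transcript Gm37885, and whether the authors' counting used strand is not given in the sources used here.

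Capn1, the catalytic subunit of calpain-1, changed the other way. Its 4 values were 32.4, 34.8, 34.8 and 37.5 CPM in JP2CR TAC, against 37.1, 38.4, 47.9 and 42.0 CPM in JP2CR sham. In WT TAC they were 34.0, 31.4, 32.2 and 34.6 CPM, against 41.6, 42.4, 39.3 and 42.7 CPM in WT sham. The WT groups were separate, while JP2CR TAC 4 at 37.5 CPM exceeded JP2CR sham 1 at 37.1 CPM. The log2 fold change was -0.25 ± 0.07 in JP2CR (adjusted p = 0.0115) and -0.33 ± 0.07 in WT (adjusted p = 0.00144). The JP2CR call was lost without the 3 libraries that held Xist (-0.15, adjusted p = 0.110), without JP2CR sham 3 (-0.16, adjusted p = 0.0569) and with only the JP2CR libraries fitted (-0.24, adjusted p = 0.0508). In the authors' deposited table the JP2CR change of Capn1 had an adjusted p of 0.0552. JP2CR sham 3 was the highest library of its group for Capn1, for Capn2 and for Myl7. JP2CR sham 4 had 0.941 CPM of Myl7 and 42.0 CPM of Capn1. The part of atrial content in the Capn1 values was not tested. Capn1 lies at chr19:5988545-6015897 on the minus strand, and 11.78% of its exon length is shared with the antisense transcript Gm10814.

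Capn15, a calpain with zinc fingers that lacks the calcium-binding domain of the classical enzymes, fell in JP2CR. It had 14.0, 13.9, 12.3 and 16.6 CPM in JP2CR TAC, against 19.0, 21.1, 20.8 and 22.1 CPM in JP2CR sham, with no overlap. The WT groups did overlap, with 16.7, 12.5, 14.9 and 15.4 CPM in WT TAC and 13.6, 19.7, 17.9 and 20.5 CPM in WT sham. The log2 fold change was -0.54 ± 0.12 in JP2CR (adjusted p = 0.00174) and -0.28 ± 0.12 in WT (adjusted p = 0.0755). WT sham 1 was the lowest WT sham library and WT TAC 1 the highest WT TAC library. Without WT sham 1 the WT value was -0.38 (adjusted p = 0.00865), and without WT TAC 1 it was -0.34 (adjusted p = 0.0476). Leaving out each library in turn gave -0.38 to -0.20 in WT, and Capn15 stayed uncalled there under 22 of 24 alternatives. Capn15 lies at chr17:25958364-25985796 on the minus strand, and 19.29% of its exon length is shared with the antisense transcript D630044L22Rik.

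Capns1, the regulatory subunit that both classical enzymes need, was the most abundant and the steadiest of the set. It had 282 to 304 CPM in JP2CR TAC, 285 to 323 CPM in JP2CR sham, 289 to 303 CPM in WT TAC and 302 to 313 CPM in WT sham. The log2 fold change of -0.05 ± 0.05 in JP2CR (adjusted p = 0.373) and -0.04 ± 0.05 in WT (adjusted p = 0.490) had 95% intervals of -0.15 to 0.04 and -0.14 to 0.05. Changes of the size seen for Cast lie outside both intervals. Capn7, a calpain that interacts with the membrane-remodelling ESCRT machinery, averaged 68.3 ± 3.97 CPM in JP2CR TAC, 67.7 ± 8.98 CPM in JP2CR sham, 66.9 ± 2.32 CPM in WT TAC and 72.2 ± 3.95 CPM in WT sham (SD, n = 4 each). Its log2 fold change was 0.02 ± 0.08 in JP2CR (adjusted p = 0.895) and -0.11 ± 0.08 in WT (adjusted p = 0.284).

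The remaining calpains were scarce, and none of them was called after TAC in either genotype. Capn10, a calpain without the calcium-binding domain, had 7.40 to 10.2 CPM in JP2CR TAC, 8.60 to 10.2 CPM in JP2CR sham, 7.78 to 11.2 CPM in WT TAC and 8.06 to 10.2 CPM in WT sham. Capn5, a widely expressed non-classical calpain, had 5.48 to 7.25 CPM in JP2CR TAC, 4.70 to 7.98 CPM in JP2CR sham, 5.89 to 8.89 CPM in WT TAC and 6.02 to 7.81 CPM in WT sham. Capn6, a family member without the catalytic cysteine, rested on 13 to 36 reads per library and had 1.14 to 2.32 CPM in JP2CR TAC, 1.23 to 2.57 CPM in JP2CR sham, 1.04 to 2.71 CPM in WT TAC and 1.43 to 1.95 CPM in WT sham. These ranges overlapped in every group. The log2 fold changes in JP2CR and WT were 0.01 ± 0.13 and 0.05 ± 0.13 for Capn10, 0.06 ± 0.17 and 0.06 ± 0.16 for Capn5, and -0.25 ± 0.32 and -0.15 ± 0.32 for Capn6. Intervals of that width do not show that these genes did not change; for Capn6 they ran from -0.92 to 0.43 in JP2CR and from -0.83 to 0.53 in WT. Capn3, the calpain characteristic of skeletal muscle, had log2 fold changes of -0.04 ± 0.16 in JP2CR and 0.02 ± 0.15 in WT (adjusted p = 0.858 and 0.919).

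**Figure D2:**
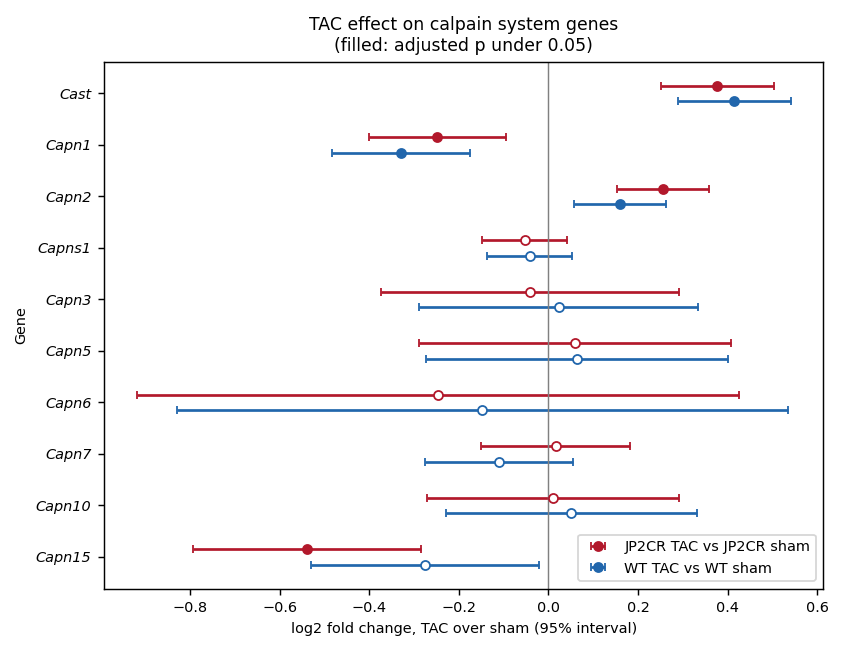
Log2 fold change of TAC over sham (x axis) for each calpain system gene, with its 95% interval, JP2CR drawn above WT. Filled points passed an adjusted p under 0.05: Cast and Capn2 to the right of 0 in both genotypes, Capn1 to the left in both, and Capn15 to the left in JP2CR.

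Because Capn1 and Capn2 moved in opposite directions, their ratio within a library, which needs no scaling between libraries, separated the surgeries. The Capn2 to Capn1 ratio of read counts was 3.98, 4.00, 3.66 and 3.55 in JP2CR TAC, against 2.83, 2.80, 2.52 and 2.59 in JP2CR sham. It was 3.39, 3.88, 3.82 and 3.56 in WT TAC, against 2.59, 2.58, 2.73 and 2.54 in WT sham. All 8 TAC libraries lay above all 8 sham libraries, and the genotypes overlapped within each surgery. These ratios describe genes already known to have moved, so they carry no test.

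The ratio of Cast to the sum of Capn1 and Capn2, inhibitor over classical catalytic subunits, was 1.46, 1.46, 1.45 and 1.29 in JP2CR TAC and 1.36, 1.33, 0.988 and 1.16 in JP2CR sham. It was 1.60, 1.61, 1.51 and 1.61 in WT TAC and 1.29, 1.16, 1.29 and 1.14 in WT sham. The WT groups were separate. The JP2CR groups overlapped, because JP2CR TAC 4 at 1.29 lay below JP2CR sham 1 and 2. Among TAC libraries, all JP2CR values lay below all WT values, with means of 1.42 ± 0.09 and 1.58 ± 0.05 (SD, n = 4 each). The gap was narrow, from 1.46 to 1.51, and 8.12% of all tested genes, taken singly, also separated these groups. None of Cast, Capn1 and Capn2 was called between the TAC groups. This ratio was likewise formed from chosen genes and carries no test, so no genotype difference is shown. The ratio of Cast to Capns1 averaged 0.805 ± 0.06 in JP2CR TAC, 0.600 ± 0.08 in JP2CR sham, 0.818 ± 0.05 in WT TAC and 0.596 ± 0.04 in WT sham.

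**Figure D3:**
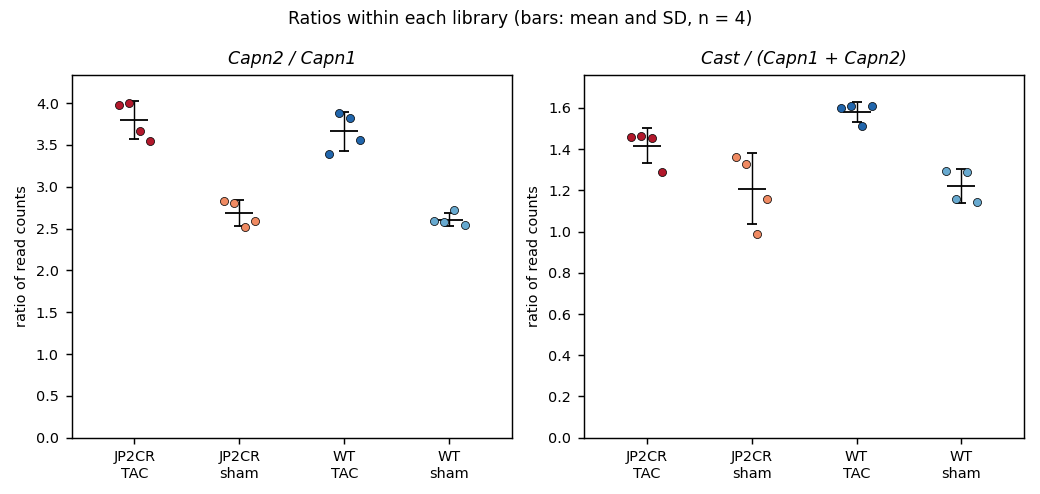
Ratios of read counts within each library (y axes, from 0): Capn2 to Capn1 on the left and Cast to the sum of Capn1 and Capn2 on the right. Points are libraries, bars the mean and SD of 4. On the left the TAC libraries span 3.39 to 4.00 and the sham libraries 2.52 to 2.83.

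The second question was whether the calpain-resistant allele altered the response. The interaction, the log2 effect of TAC in JP2CR minus that in WT, was called for 0 of the 10 genes by edgeR and 0 by DESeq2, and 0 had an unadjusted p under 0.05. Over all tested genes edgeR called 0.118%, and 10.3% had an unadjusted p under 0.05, so a count of 0 is near that background. The largest estimate belonged to Capn15, at -0.26 ± 0.17 (adjusted p = 0.647), with a 95% interval of -0.62 to 0.10. For Cast it was -0.04 ± 0.08 (adjusted p = 0.925; interval -0.22 to 0.14) and for Capn1 0.08 ± 0.10 (adjusted p = 0.851; interval -0.14 to 0.30). For Capn2 it was 0.10 ± 0.07 (adjusted p = 0.684). The call of Capn15 in JP2CR and not in WT is therefore not shown to be a difference between the genotypes.

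The third comparison set the genotypes side by side after the same surgery. JP2CR sham against WT sham gave 0 called calpain genes with edgeR and with DESeq2, where edgeR called 0.0961% of all tested genes, and 1 gene, Capn3, had an unadjusted p under 0.05, as had 7.97% of all tested genes. JP2CR TAC against WT TAC also gave 0 calls by both tools, against 0.651% of all tested genes with edgeR. There 2 genes, Capn3 and Capn2, had an unadjusted p under 0.05, as had 12.9% of all tested genes.

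Capn3 had the lowest p of the 10 genes after either surgery. It had 3.66, 5.00, 4.17 and 6.14 CPM in JP2CR TAC, against 6.43, 7.03, 6.95 and 6.26 CPM in WT TAC. It had 5.42, 4.12, 5.48 and 4.39 CPM in JP2CR sham, against 5.62, 6.21, 7.00 and 7.41 CPM in WT sham. All 4 JP2CR libraries lay below all 4 WT libraries after either surgery. The gap was narrow, as JP2CR TAC 4 at 6.14 CPM was next to WT TAC 4 at 6.26 CPM. The log2 difference was -0.49 ± 0.15 after TAC (adjusted p = 0.160 with edgeR) and -0.42 ± 0.15 after sham surgery (adjusted p = 0.441 with edgeR). Separate groups were found for 1 of the 10 genes between the sham groups and for 2 between the TAC groups, against 4.78% and 8.12% of all tested genes. Without the 3 libraries with Xist, Capn3 passed the threshold after TAC (-0.64, adjusted p = 0.0335 with edgeR). That fit left out JP2CR TAC 4, the highest JP2CR TAC library for Capn3, and called 228 of 13740 genes higher and 150 lower. Under 23 of 24 alternatives Capn3 stayed uncalled after TAC. Capn3 was counted from few reads, and 386 bases of its exons, 7.68% of their length, belong also to Ganc on the same strand. The summed markers of skeletal muscle, the tissue of highest Capn3, were 2.32 to 4.47 CPM in JP2CR TAC, 2.93 to 9.43 CPM in JP2CR sham, 2.09 to 2.76 CPM in WT TAC and 6.92 to 10.0 CPM in WT sham. Myh2 and Myh4 of that list were at 0 counts in all WT TAC libraries. Their part in the Capn3 values was not tested.

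Capn2 was the other gene with separate groups after TAC. Its 4 JP2CR TAC libraries, at 128 to 139 CPM, all exceeded the 4 WT TAC libraries, at 115 to 123 CPM, with a log2 difference of 0.13 ± 0.05 that missed the threshold (adjusted p = 0.255 with edgeR). Capn15 was 0.20 ± 0.12 (log2) higher in JP2CR sham than in WT sham, which also missed it (adjusted p = 0.725 with edgeR).

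Levels of different genes were compared as CPM per kilobase of annotated exons. Averaged over the 16 libraries, Capns1 stood first at 121.5 per kilobase, followed by Capn2 at 18.6, Cast at 18.4, Capn7 at 14.1 and Capn1 at 11.3. Then came Capn15 at 2.96, Capn10 at 2.11, Capn5 at 1.22, Capn3 at 1.14 and Capn6 at 0.219 per kilobase. The regulatory subunit RNA thus exceeded each catalytic subunit in every library, the ranges being 113.9 to 130.5 per kilobase for Capns1 and 16.6 to 21.9 per kilobase for Capn2. Capn2 and Cast did not differ beyond their spread in JP2CR TAC, with 20.8 ± 0.834 and 20.6 ± 1.25 per kilobase. With the exon union as the length, their order turned with surgery in WT: Capn2 and Cast had 19.0 ± 0.603 and 21.2 ± 0.738 per kilobase in WT TAC, and 17.0 ± 0.142 and 15.9 ± 0.853 per kilobase in WT sham (SD, n = 4 each). Capn5 and Capn3 overlapped in every group. With the longest transcript as the length it did not turn: Capn2 and Cast had 37.5 ± 1.19 and 47.3 ± 1.65 per kilobase in WT TAC, and 33.5 ± 0.280 and 35.5 ± 1.90 per kilobase in WT sham (SD, n = 4 each). On that length, averaged over the 16 libraries, Cast (41.1) came before Capn2 (36.6) and Capn3 (1.80) before Capn5 (1.49).

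**Figure D4:**
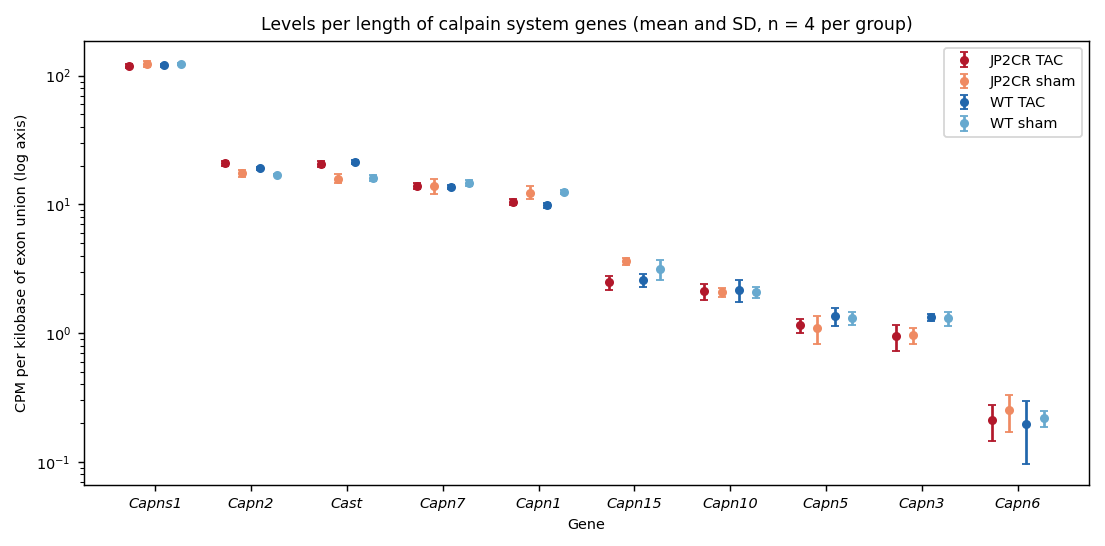
CPM per kilobase of exon union (log y axis) for each calpain system gene (x axis), by group, as mean and SD of 4 libraries. Capns1 lies near 121.5 and Capn6 near 0.219, with Capn2, Cast, Capn7 and Capn1 between 9.88 and 21.2.

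Other members of the family were scarce or not detected. Of 6 further genes looked for, Capn11 and Capn12 had enough reads to test, Capn8 had 0 counts in every library, and Capn9, Capn13 and Capns2 had at most 5 counts in any library. Capn12 was not called in any comparison. Capn11, known from the testis in mice, had 1.50, 0, 0.849 and 0.0668 CPM in JP2CR TAC and 0.499, 1.01, 5.79 and 0 CPM in JP2CR sham. It had 0, 0, 0 and 1.20 CPM in WT TAC and 3.35, 2.92, 3.09 and 3.46 CPM in WT sham. Its log2 fold change was -3.43 ± 1.07 in WT (adjusted p = 0.0151 with edgeR) and -1.73 in JP2CR (adjusted p = 0.168 with edgeR). In JP2CR the value turned to 0.21 without JP2CR sham 3. The WT call was lost with DESeq2 (-3.41, adjusted p = 0.121) and without the 2 intermediate TAC libraries (-3.06, adjusted p = 0.0554). Without WT TAC 4, the WT TAC library with reads, the fitted value was -8.41, which depends on the prior count because the other WT TAC libraries were at 0. In the same libraries and order, the atrial marker Myl7 had 85.5, 103, 95.7 and 174 CPM in JP2CR TAC, 529, 299, 802 and 0.941 CPM in JP2CR sham, 60.8, 7.76, 36.8 and 10.5 CPM in WT TAC and 451, 761, 604 and 710 CPM in WT sham. The highest library for Capn11, JP2CR sham 3, was also the highest for Myl7, and JP2CR sham 4 was at 0 for Capn11 and lowest for Myl7. Elsewhere the order parted. JP2CR sham 1 had more Myl7 than WT sham 1 (529 against 451 CPM) but less Capn11 (0.499 against 3.35 CPM). WT TAC 1 had more Myl7 than WT TAC 4 (60.8 against 10.5 CPM) but less Capn11 (0 against 1.20 CPM). The part of atrial content in the Capn11 values was not tested.

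Proteins that calpains are known to cleave were followed through 24 genes written down by name. The list was chosen with earlier results of these data known, so its share of calls is a description. In JP2CR, 10 rose and 5 fell after TAC (median log2 fold change 0.08), where 20.7% of all tested genes were called in each direction. In WT, 9 rose and 5 fell (median 0.11), where 21.1% of all tested genes were called higher and 20.8% lower. The median over all tested genes was near 0. Desmin, Des, the intermediate filament of muscle, rose by 0.69 ± 0.08 (log2) in JP2CR and 0.96 ± 0.08 in WT. Titin, Ttn, the elastic filament of the sarcomere, rose by 0.57 ± 0.07 and 0.82 ± 0.07, and myosin-binding protein C, Mybpc3, by 0.31 ± 0.07 and 0.46 ± 0.07. Troponin I, Tnni3, fell by 0.73 ± 0.06 in JP2CR and 0.77 ± 0.06 in WT, and it also stands on the cardiomyocyte marker list. Ezrin, Ezr, which links membrane and actin, fell by 0.53 ± 0.09 and 0.63 ± 0.09. Junctophilin-1, Jph1, the relative of the modified protein, fell by 0.35 ± 0.08 and 0.48 ± 0.08. Each of these changes was called in both genotypes, with edgeR adjusted p of at most 0.00181. None of the 24 was called in the interaction or between genotypes.

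Other proteases of the cell, with their ligases and inhibitors, made a second list of 18 genes. It too was chosen with earlier results of these data known, so its share of calls is a description. In JP2CR, 10 rose and 2 fell (median log2 fold change 0.24), against the same 20.7% of all tested genes in each direction. In WT, 8 rose and 2 fell (median 0.21), against 21.1% and 20.8%. Of 7 lysosomal cathepsins, Ctsd, Ctsk, Ctsl, Ctss and Ctsz rose in both genotypes, Ctsd by 0.34 ± 0.06 in JP2CR and 0.45 ± 0.06 in WT and Ctsz by 0.57 ± 0.07 and 0.54 ± 0.07. Cathepsin B, Ctsb, named after its values were seen, was not called, with log2 fold changes of 0.07 ± 0.05 in JP2CR (adjusted p = 0.285 with edgeR) and 0.01 ± 0.05 in WT (adjusted p = 0.927 with edgeR). Without the 3 libraries with Xist it was called in JP2CR (0.15, adjusted p = 0.0267 with edgeR). Casp12, a caspase of the inflammatory group, rose by 1.24 ± 0.14 and 0.81 ± 0.14. The executioner caspase Casp6 fell by 0.32 ± 0.11 in JP2CR and 0.44 ± 0.11 in WT, and cathepsin H, Ctsh, fell by 0.36 ± 0.09 in WT. In JP2CR, Ctsh had a log2 fold change of -0.19 ± 0.09 that was not called (adjusted p = 0.0950 with edgeR), and the Casp6 call (adjusted p = 0.0252) was lost without JP2CR sham 1 (-0.23, adjusted p = 0.115). It was also lost, at -0.30, -0.30 and -0.28 against -0.32 with all libraries, without JP2CR sham 2, JP2CR TAC 1 or JP2CR TAC 2 (adjusted p = 0.0529, 0.0593 and 0.0711 with edgeR), and with only the JP2CR libraries fitted (-0.31, adjusted p = 0.0560 with edgeR). Beside the cathepsins, the summed macrophage markers were 280 to 328 CPM in JP2CR TAC, 202 to 244 CPM in JP2CR sham, 255 to 274 CPM in WT TAC and 201 to 221 CPM in WT sham. Of 7 macrophage markers, 5 were called higher and 0 lower in JP2CR, and 5 higher and 1 lower in WT. Their part in the cathepsin values was not tested. None of the 18 was called in the interaction or between genotypes.

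**Figure D5:**
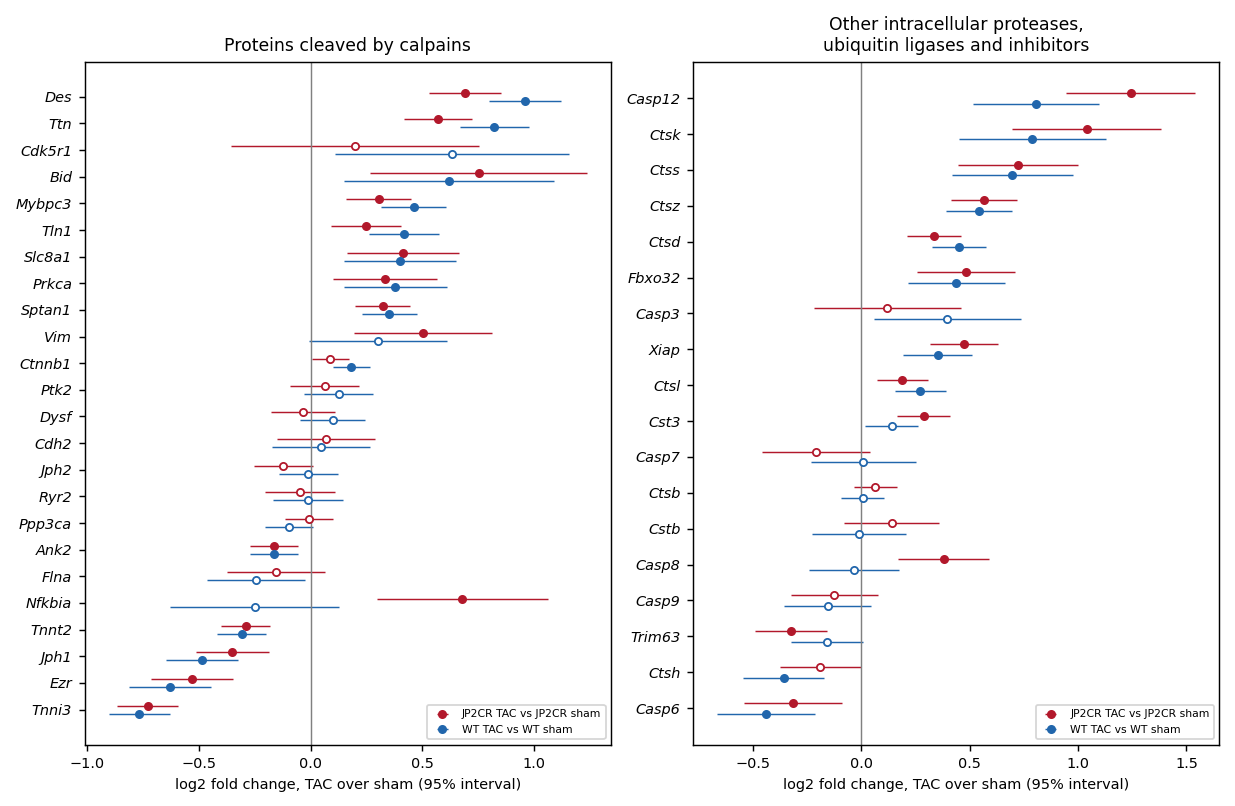
Log2 fold change of TAC over sham with 95% intervals (x axes) for the calpain target proteins (left) and for other proteases, ligases and inhibitors (right), JP2CR above WT. Filled points passed an adjusted p under 0.05; Des lies at 0.69 in JP2CR and 0.96 in WT, and Tnni3 at -0.73 and -0.77.

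Of 9553 well expressed genes, those whose log2 CPM followed Cast, Capn1 or Capn2 most closely over the 16 libraries were listed as a description, since all share the effect of surgery. For Cast they were Ipo7, an import receptor of the nucleus (r = 0.983), and Slain2, a microtubule protein (r = 0.978), after an entry whose symbol had been turned into a date (r = 0.987). For Capn1 they were Dgat2, an enzyme of triglyceride synthesis (r = 0.973), Lman2 (r = 0.958) and the histone demethylase Kdm6b (r = 0.947). For Capn2 they were the myelin protein gene Pmp22 (r = 0.961) and the annexins Anxa2 and Anxa1 (r = 0.948 and 0.942), which bind calcium and membranes.

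Sequence before the start of the 4 genes called after TAC is given because they moved in different directions. RefSeq windows of GRCm38.p6 were matched by symbol for 9 of the 10 genes, with 16 starts in all. For each gene the line shows the bases before its outermost start that lie outside the annotated transcripts, 5′ to 3′ on the minus strand. Capitals mark matches, on either strand, to the GC box GGGCGG, the box CCAAT, the TATA box TATAAA, the E-box CACGTG, the AP-1 site TGACTCA or the cyclic AMP response element, whose letters are TGACGTCA. The E-box and the last motif read alike on both strands. The windows are chr13:74808811-74809010 for Cast, chr1:182517611-182517860 for Capn2, chr19:6015898-6016075 for Capn1 and chr17:25985875-25986124 for Capn15.
Cast: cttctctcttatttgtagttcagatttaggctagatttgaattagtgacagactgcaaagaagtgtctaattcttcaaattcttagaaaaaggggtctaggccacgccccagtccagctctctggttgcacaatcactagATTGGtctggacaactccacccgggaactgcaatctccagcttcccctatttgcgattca
Capn2: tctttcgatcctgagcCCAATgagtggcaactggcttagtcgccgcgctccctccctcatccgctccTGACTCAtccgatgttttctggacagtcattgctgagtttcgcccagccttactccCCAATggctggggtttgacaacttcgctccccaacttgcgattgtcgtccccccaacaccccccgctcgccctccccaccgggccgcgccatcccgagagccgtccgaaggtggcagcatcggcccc
Capn1: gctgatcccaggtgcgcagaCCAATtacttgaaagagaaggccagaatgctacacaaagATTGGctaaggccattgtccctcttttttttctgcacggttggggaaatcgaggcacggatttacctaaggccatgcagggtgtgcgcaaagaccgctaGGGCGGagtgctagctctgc
Capn15: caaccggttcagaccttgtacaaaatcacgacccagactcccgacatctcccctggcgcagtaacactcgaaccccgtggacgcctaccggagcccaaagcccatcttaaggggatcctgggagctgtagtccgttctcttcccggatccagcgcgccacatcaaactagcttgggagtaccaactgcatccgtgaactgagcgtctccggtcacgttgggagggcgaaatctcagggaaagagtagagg
The Capn2 stretch held 2 matches to CCAAT and 1 to TGACTCA, which occurs in 4.46% of the 32851 windows of 250 bases. Capn1 had 2 matches to CCAAT and 1 to GGGCGG, and Cast had 1 to CCAAT. The CCAAT box was found in 33.8% of all windows and the GC box in 32.7%. The Cast and Capn1 stretches, of 200 and 178 bases, are shorter than those windows. Matches before other starts, such as 2 to GGGCGG before the Cast start at 74807960, are not counted here. The TATA box (12.4% of all windows), the E-box (6.02%) and the cyclic AMP response element (1.55%) were in none of the 4 stretches, and Capn15 had no match at all. Cast had 4 annotated starts, Capn15 had 3 and Capn1 had 2, and the counts do not tell which of them was used. A match of letters is not a binding site.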

How the data were processed

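Polyadenylated RNA of 16 ventricle samples was sequenced from stranded libraries (per the labels' protocols). The tested values were whole-number counts of reads per gene, deposited by the authors without normalization. The authors also deposited log2 fold changes with adjusted p-values of the TAC effect by genotype, quoted here only where their table is named; their columns for the sham groups were not used here. The submitters' processing notes name Cufflinks 2.2.1, Picard 1.128, STAR 2.5.0b, DESeq2 1.6.3, FastQC 1.0.0 and bedtools 2.17.0, with the build mm10. Which program counted the reads, on what annotation and with what strand setting, is not given there.

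Groups and replicate numbers came from the sample titles. Nothing in the labels links a library to an individual mouse, so the p-values reflect the spread among libraries, which may in part be technical. The floors of 3 counts cover counting error only, whereas the 95% intervals come from the fit and include the spread among libraries. edgeR 4.0.16 (R 4.3.3) filtered genes with filterByExpr by group (a minimum count of 10), scaled by TMM and fitted a mean per group over all 16 libraries. The quasi-likelihood F test was applied to 5 contrasts, with Benjamini-Hochberg adjustment over 13522 genes and a threshold of 0.05. Standard errors are the log2 fold change over the square root of F. The fit was tested on simulated counts. Alternatives were DESeq2 1.42.0, RLE factors, no filter, 1 CPM in 8 libraries, a block for the replicate number, fits of just the groups compared, fits without the 3 libraries with Xist or the 2 intermediate TAC libraries, and leaving out each library.

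Gene positions and exon lengths came from GENCODE M21 (GRCm38), and windows before starts from RefSeq. The members and lists were chosen with earlier results of these data known. Always named were the members, their family and Jph2; from each list, up to 3 genes per direction with the smallest p for TAC in WT; and for Cast, Capn1 and Capn2 the 3 genes with the highest Pearson r of log2 CPM (prior count 2, mean of at least 3). Figures were drawn with matplotlib 3.10.9.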

Additional observations from a re-analysis of the deposited data

Results flagged for a closer look

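Among 48 sets of 4 libraries (each calpain gene, the ratio of Capn2 to Capn1 and that of Cast to the sum of Capn1 and Capn2, in each group), 3 held a library far from the other 3 by Dixon's ratio. Chance flags about 1 in 20 groups, so 3 of 48 is near what chance gives. Capn10 had 10.2 CPM in JP2CR sham 3, where the other 3 JP2CR sham libraries had 8.60 to 8.84 CPM. The log2 ratio of Cast to the sum of Capn1 and Capn2 was 0.37 in JP2CR TAC 4, against 0.54 to 0.55 in the other JP2CR TAC libraries. That ratio was 0.59 in WT TAC 3, against 0.68 to 0.69 in the other WT TAC libraries. JP2CR sham 3 and JP2CR TAC 4 are also libraries with Xist, and WT TAC 3 is an intermediate one, facts whose part in these values was not tested.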

How the results depend on the processing

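The TAC calls of Cast and Capn2 in both genotypes, Capn1 in WT and Capn15 in JP2CR kept direction and threshold under all 24 alternatives. Members called numbered 3 to 4 in each genotype throughout. Between genotypes after TAC, the count of 0 became 1 (Capn3) without the 3 libraries with Xist. In that setting 228 of all 13740 tested genes were called higher and 150 lower. The same alternatives applied to the 2 gene lists, and leaving out libraries in the ratios, were chosen after seeing the data: substrates called numbered 10 to 16 in JP2CR and 12 to 17 in WT, and no count of the other proteases moved by over 1.5 times.

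The log2 fold changes that reversed were all uncalled. Apart from Capn11 in JP2CR (-1.73) they lay between -0.15 and 0.06 with all libraries. Without the libraries with Xist, JP2CR values were -0.020 for Capn5, -0.080 for Capn7, 0.00042 for Capns1 and 0.13 for Capn11. Without the 2 intermediate TAC libraries they were 0.017 for Capn3, -0.013 for Capn5 and -0.042 for Capn10 in JP2CR, and -0.0066 for Capn10 in WT. Leaving out each library gave, in JP2CR, -0.20 to 0.064 for Capn3, -0.023 to 0.24 for Capn5, -0.072 to 0.070 for Capn7, -0.042 to 0.10 for Capn10 and -2.72 to 0.21 for Capn11. In WT it gave -0.041 to 0.086 for Capn3, -0.040 to 0.16 for Capn5, -0.57 to 0.0063 for Capn6, -0.046 to 0.13 for Capn10, -0.016 to 0.023 for Ctsb and -8.41 to -2.96 for Capn11 (called throughout), and for the interaction of Cast -0.076 to 0.0035. Beyond the fewer samples fitted, the cause was not tested.

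Per kilobase of the longest transcript in place of the exon union, levels were 188.1 for Capns1, 41.1 for Cast, 36.6 for Capn2, 3.16 for Capn10, 1.80 for Capn3, 1.49 for Capn5 and 0.377 for Capn6; shorter lengths raise them by construction.

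The number of genes called over the whole table differed by setting. For the interaction, 12 higher and 4 lower became 92 and 41 with DESeq2, 213 and 159 leaving out the 3 Xist libraries, 0 and 0 leaving out both intermediate ones, 29 and 10 with no filter and 7 and 2 with the replicate block. For JP2CR sham against WT sham, 0 higher and 13 lower became 14 and 38 with DESeq2, 20 and 44 leaving out the 3 Xist libraries, 0 and 6 leaving out both intermediate ones, 3 and 22 with no filter and 2 and 20 with the replicate block. For JP2CR TAC against WT TAC, 49 and 39 became 131 and 101 with DESeq2, 228 and 150 leaving out the 3 Xist libraries, 2 and 2 leaving out both intermediate ones and 95 and 62 with just those groups fitted. Leaving out each library gave 2 to 120 calls for the interaction, 5 (without WT sham 3) to 28 between sham groups and 8 (without WT TAC 3) to 246 between TAC groups, the upper values all without JP2CR sham 3.

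Same-numbered libraries were not shown to be paired: the correlation of their deviations had a median of -0.0262 (24 pairs, -0.159 to 0.211), against -0.0100 for 72 other pairs, and 3 of 16 libraries correlated best with their own number. With the replicate block, members called stayed at 4 in JP2CR (Capn1 -0.25, Capn2 0.26, Capn15 -0.55, Cast 0.38) and 3 in WT (Capn1 -0.33, Capn2 0.16, Cast 0.42). Low counts limit Capn6, Capn11 and Capn12.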
